A study of Homo sapiens with 18 samples.

Results

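All 14896 genes measured in the comparison of the H12 clone with its parental line HepG2 were described, out of 15019 genes measured in either comparison of the series. The other comparison, of the clone H33 with HepG2, held 14888 genes, and 14765 genes were in both. All genes of the comparison were taken, whatever their values. The gene lists used below were chosen with earlier results of these data known. Poly-A RNA was sequenced on an Illumina NovaSeq6000 instrument from 18 libraries of human liver cancer cells, 6 per line. HepG2, a hepatoblastoma line with the genotype WT, was the control, and H12 and H33 have the genotype DNAJB1-PRKACA. All lines were kept in RPMI1640 medium with serum and antibiotics, with no drug named for any group. The 6 samples of a line are called biological replicates, but no source says whether each was its own culture. The p-values therefore rest on how these samples vary, which may be technical. H12 is 1 clone, so that a feature of the clone and an effect of the fusion cannot be told apart.

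DNAJB1-PRKACA is the gene fusion that marks fibrolamellar carcinoma, a liver cancer of young people. It puts the start of DNAJB1, a co-chaperone of the heat shock protein HSP70, before PRKACA, which encodes the catalytic subunit of PKA, a kinase switched on by cAMP. PKA is held inactive by regulatory subunits until cAMP binds them, is placed in the cell by A-kinase anchor proteins, and acts on gene expression through factors of the CREB family. HepG2 cells keep many features of fetal hepatocytes: they secrete plasma proteins under the control of the HNF4 and FOXA factors and make the fetal protein AFP. The title of the study names CDK7, a kinase that phosphorylates RNA polymerase II and other cyclin-dependent kinases.

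The values came from the authors' table of test statistics, with a log2 fold change of H12 over HepG2 and a mean log2 CPM (counts scaled to library size) per gene. Values per library were not analysed here, so neither library depth nor variation among libraries is known. The standard error (SE) of a log2 fold change was derived from that change and its likelihood ratio. The level in each line, in CPM, was implied by the mean level and the fold change. A gene was called at an adjusted p under 0.05 (likelihood ratio test, Benjamini-Hochberg). At the bottom of the scale, 72 genes in HepG2 and 13 in H12 lay at a fitted floor under 0.0078 CPM, as a gene without reads would. Levels, not fold changes, are given for such genes, since the prior count would set the fold. For genes with few reads in 1 line the derived SE can be too small. In bulk RNA, fewer cells of a type and less RNA per cell cannot be told apart.

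Most measured genes differed between H12 and HepG2. Of the 14896 genes, 12817 (86.0%) were called in the authors' deposited table, 6224 as higher (41.8%) and 6593 as lower (44.3%). With a change of at least 2-fold, 3085 genes were higher (20.7%) and 3479 lower (23.4%). At 32-fold, or 5 log2 units, 826 were higher (5.55%) and 1042 lower (7.00%). The median of all log2 fold changes in the authors' deposited table was -0.03. The counts of the gene lists below are to be read against these shares. They cover measured members only, which were 771 of 891 list entries. By annotated class, 675 of 13016 protein-coding genes rose and 904 fell by at least 32-fold. Of 487 long intergenic RNAs 13.6% rose and 10.9% fell that far. These RNAs were low, with a median of 0.36 log2 CPM against 4.81 for protein-coding genes. Of all genes between 0 and 2 log2 CPM, 11.6% rose and 11.5% fell by at least 32-fold, which is near the shares of these RNAs.

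**Figure D1:**
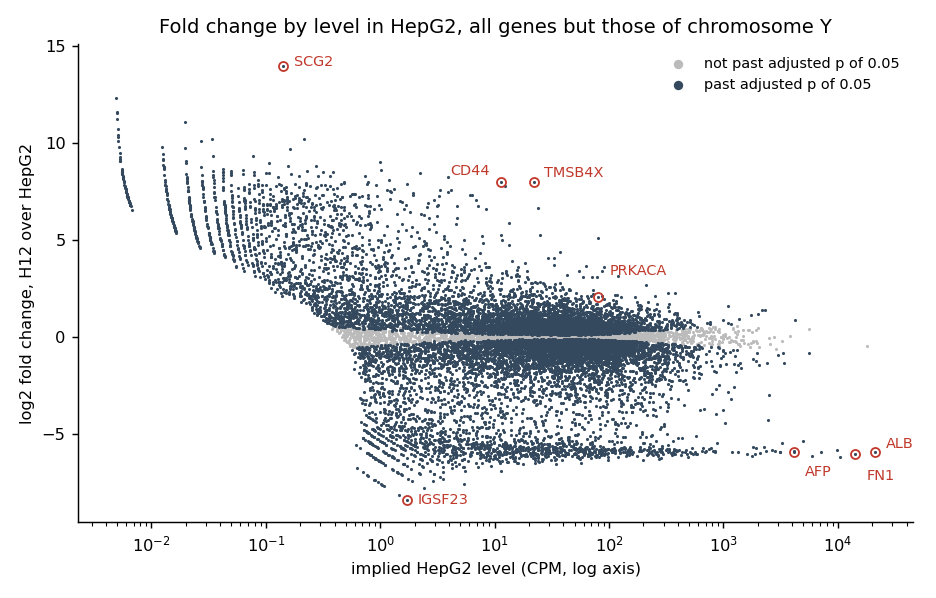
Each point is a gene (chromosome Y left out), with its implied level in HepG2 (CPM, log axis) against its log2 fold change of H12 over HepG2; dark points passed an adjusted p of 0.05. Genes that fell by at least 32-fold lie along a band near -5.84 from about 10 CPM upward, while rises spread from 5 to 13.97 log2 units.

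The falls had a common depth, and from 3 CPM upward their error mostly grew with abundance. Among the 1042 genes that fell at least 32-fold, 587 had a HepG2 level of at least 10 CPM. Their median log2 fold change in the authors' deposited table was -5.84 with an SD of 0.301 across genes, which is a level of 1.74% of HepG2. Of these 587 genes 493 (84.0%) lay between -6.5 and -5.5, and 6 were below -6.5. The 455 falling genes under 10 CPM were more spread, with an SD of 0.587 around -5.73, and 57 of them were below -6.5. Sorted by HepG2 level, the median SE of the falling genes was 0.485 under 1 CPM, 0.342 from 1 to 3 CPM and 0.251 from 3 to 10 CPM. It was 0.695 from 10 to 30 CPM and 0.657 from 30 to 100 CPM. It was 1.02 from 100 to 300 CPM, 1.30 from 300 to 1000 CPM and 1.47 above that. The SD of their fold changes shrank meanwhile, from 0.459 in the group from 3 to 10 CPM to 0.201 above 1000 CPM. The deepest falls among abundant genes were thus nearly equal in size and had the largest SE.

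The serum protein gene ALB had the largest SE of all genes with at least 6 log2 CPM. Its implied level was 21086 CPM in HepG2 and 349 CPM in H12, with a log2 fold change of -5.92 (SE 1.59, adjusted p = 0.000270) in the authors' deposited table. The fibrinogen chain gene FGA (-5.70, SE 1.59), the lipoprotein gene APOB (-6.20, SE 1.57), the proteoglycan gene GPC3 (-5.89, SE 1.56) and the protease inhibitor gene A2M (-5.91, SE 1.56) came next in the authors' deposited table. The other 5 of the 10 largest errors were those of AHSG, AMBP, ITIH2, APOH and TF, which encode plasma proteins. None of the 10 was a gene that rose.

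The rises behaved otherwise. The 373 genes that rose at least 32-fold to 10 CPM or more in H12 had a median log2 fold change of 6.86 in the authors' deposited table, an SD of 1.22 across genes and a median SE of 0.148. Among genes of at least 6 log2 CPM, the 10 largest likelihood ratios, which rank a change by its size over its error, all belonged to rises. CCDC71L led them, from 0.164 CPM to 135 CPM (9.68, SE 0.13), before the phospholipase B-like gene PLBD1 (8.51, SE 0.12), the histone deacetylase HDAC9 (7.34, SE 0.11) and the Cdc42 effector CDC42EP3 (7.28, SE 0.11) in the authors' deposited table. The others were the epidermal master regulator TP63 (6.60, SE 0.11), GOLM1, EMP3, MALL, LINC02154 and SPRY2, an inhibitor of receptor tyrosine kinase signalling.

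Error also rose with abundance among genes that hardly moved. For genes within 0.5 log2 units of no change, the median SE fell from 0.237 under 0 log2 CPM to 0.0575 between 4 and 6 log2 CPM. It then rose to 0.0833 between 6 and 8 and to 0.196 at 8 and over. In consequence 240 of the 634 genes of 8 log2 CPM and over (37.9%) were not called, against 11.2% between 4 and 6 log2 CPM. In H33 the SE fell at every step. Over all genes of both tables, the median SE at 8 log2 CPM and over was 0.204 in H12 and 0.0365 in H33, a median ratio of 5.71. Between 2 and 4 log2 CPM the medians were 0.0967 and 0.0964. The abundant genes, the plasma protein genes among them, were therefore measured less precisely in H12 than in H33. The median gene between 2 and 4 log2 CPM was measured about as precisely in both, but falls of at least 5 log2 units were not. The median SE of these falls was 0.676 in H12 and 0.170 in H33 in that band. Between 4 and 6 log2 CPM it was 0.666 and 0.106. At lower levels it was similar in both clones, with 0.277 and 0.287 between 0 and 2 log2 CPM. Which H12 libraries the spread comes from cannot be seen without values per library.

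**Figure D2:**
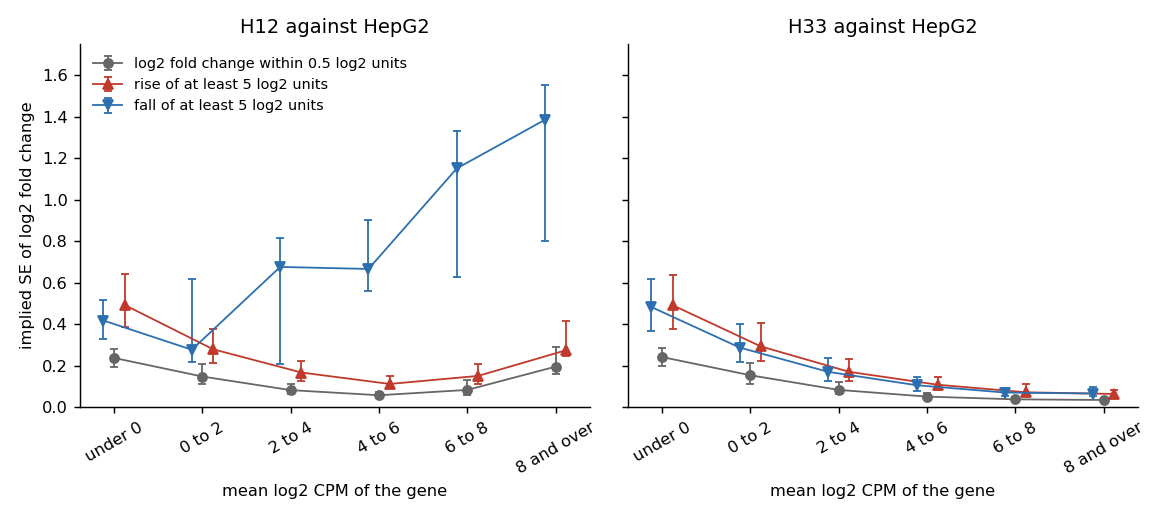
Points give the median implied SE of the log2 fold change by band of mean log2 CPM, bars the 10th to 90th percentile of genes, for genes within 0.5 log2 units of no change (grey), rises (red) and falls (blue) of at least 5. In H12 the SE of falling genes climbs to a median of 1.39 at 8 log2 CPM and over, while in H33 every class declines with abundance.

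The most abundant transcripts per length changed places. Per kilobase of exon, the iron storage gene FTL led in both lines, with 6400 CPM per kb in HepG2 and 8581 in H12. ALB followed in HepG2 at 6244 CPM per kb and stood at 103 in H12. The actin-binding peptide gene TMSB4X went the other way, from 12.9 to 3201 CPM per kb, which made it the second most abundant in H12 on that scale. Its log2 fold change in the authors' deposited table was 7.96 (SE 0.49). AHSG and APOA2, plasma protein genes, stood at 2541 and 2213 CPM per kb in HepG2 and at 36.0 and 34.9 in H12. The glycolytic enzyme GAPDH (1404 to 2606 CPM per kb), the actin gene ACTB (619 to 1614) and TMSB10, a relative of TMSB4X (796 to 1749), ranked among the 10 highest in H12. The elongation factor EEF1A1 was at 3023 and 2179 CPM per kb and was not called (adjusted p = 0.365), as were FTL (0.350) and HSP90AB1 (0.866).

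Hepatocyte identity genes mostly fell. All 24 measured secreted plasma protein genes were lower in the authors' deposited table, with a median of -5.91. Together they held 82076 CPM in HepG2 and 1368 CPM in H12, or 7.69% and 0.146% of the summed implied level. ALB, APOB, AHSG and AFP were among those that fell, and APOC3 (199 to 2.41 CPM), APOA1 (1779 to 24.9 CPM) and the thyroxine carrier TTR (65.7 to 0.930 CPM) had other large falls. AFP itself, the fetal counterpart of albumin, went from 4133 to 67.2 CPM. The implied level of AFP in H33 was 0.0372 CPM. An H12 level is a mean over 6 libraries, with an SE of 1.47 for the fold change of AFP, and whether all 6 hold the remaining reads cannot be seen here. Of 24 hepatocyte transcription factors 22 were lower and 2 higher, and the median log2 fold change in the authors' deposited table was -5.68. The nuclear receptor HNF4A (351 to 5.62 CPM) and the T-box factor TBX3 (61.8 to 0.983 CPM) were among the deepest falls. The nuclear receptors NR2F1 and NR2F2, factors of the COUP-TF family, rose by 3.12 (SE 0.07) and 3.44 (SE 0.09) in the authors' deposited table, to 135 and 171 CPM. HepG2 thus carried the liver markers its label calls for, and the H12 mean was a small fraction of that level.

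The promoters of ALB and AFP are shown because both genes fell by the common amount and both hold the letters GTTAAT, which were searched in all promoters. The sequences are from RefSeq on GRCh38.p14, with 250 bases before the transcription start and 50 after it. They span chr4:73404037-73404336 for ALB and chr4:73435971-73436270 for AFP, both on the plus strand. Capitals mark GTTAAT, searched on both strands, which begins 61 bases before the start in ALB and 132 bases before it in AFP.
ALB: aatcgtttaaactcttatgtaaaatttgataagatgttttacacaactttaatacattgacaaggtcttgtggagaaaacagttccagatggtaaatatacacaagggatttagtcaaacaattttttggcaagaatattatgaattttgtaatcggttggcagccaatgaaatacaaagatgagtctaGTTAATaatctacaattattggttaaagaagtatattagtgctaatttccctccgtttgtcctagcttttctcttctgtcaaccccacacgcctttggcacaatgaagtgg
AFP: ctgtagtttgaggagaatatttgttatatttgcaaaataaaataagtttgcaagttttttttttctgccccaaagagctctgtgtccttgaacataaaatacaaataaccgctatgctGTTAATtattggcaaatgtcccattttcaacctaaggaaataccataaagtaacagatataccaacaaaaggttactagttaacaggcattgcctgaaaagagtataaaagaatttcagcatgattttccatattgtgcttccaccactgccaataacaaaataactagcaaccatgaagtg
Among the RefSeq promoters of genes that fell at least 32-fold, 119 of 1006 (11.8%) held GTTAAT. The share was 6.33% among those of genes that rose that far, 4.45% among the 16024 promoters of all tested genes and 6.88% among all 35100 promoters. The forkhead (FOXA) letters TGTTTAC were in 3.18%, 2.53%, 2.64% and 3.42% of the same 4 sets. The sets differ in base composition, with a median GC content of 58.2% in the falling genes, 64% in the rising ones, 64.7% in all tested genes and 58.7% in all promoters. A match of letters is a description of the sequence, not a site in use.

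Fetal and progenitor markers mostly fell too. Of 18 oncofetal liver genes 15 were lower and 2 higher, and the median log2 fold change in the authors' deposited table was -5.61. The imprinted genes DLK1 (284 to 3.82 CPM) and PEG3 (1179 to 19.2 CPM), the adhesion molecule EPCAM (144 to 2.38 CPM) and GPC3 (4172 to 70.4 CPM) fell. The RNA-binding protein IGF2BP3 rose by 1.17 (SE 0.15) and the keratin KRT19 by 2.27 (SE 0.12) in the authors' deposited table. Bile acid and xenobiotic enzymes had 17 of 20 genes lower and 3 higher, and the median log2 fold change in the authors' deposited table was -4.40. The sterol hydroxylases CYP27A1 (217 to 3.23 CPM) and CYP8B1 (13.7 to 0.219 CPM) and the sulfotransferase SULT2A1 (364 to 6.05 CPM) were among the falls. The 3 that rose were the glutathione transferase GSTP1 (1.25 to 222 CPM), the cytochrome CYP1B1 (0.111 to 6.45 CPM) and the vitamin D hydroxylase CYP2R1 (0.669 to 9.74 CPM).

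Nitrogen and lipid genes fell less. Of 20 urea cycle and nitrogen genes 18 were lower and 2 higher, and the median log2 fold change in the authors' deposited table was -1.31. The liver glutaminase GLS2 fell by 6.37 (SE 0.16), the arginase ARG1 by 5.88 (SE 0.85), the ornithine transcarbamylase OTC by 5.04 (SE 0.31) and the glutamine synthetase GLUL by 3.79 (SE 0.30) in the authors' deposited table. Ornithine aminotransferase (OAT) rose by 1.32 (SE 0.10) in it. Cholesterol synthesis had 21 of 24 genes lower and 2 higher, and the median log2 fold change in the authors' deposited table was -1.37. The sterol oxidase MSMO1 (240 to 23.9 CPM) and the synthase HMGCS1 (398 to 43.6 CPM) fell, and so did INSIG2 (168 to 17.6 CPM). INSIG2 and its relative INSIG1 both retain the sterol sensor SCAP in the endoplasmic reticulum, and INSIG1 rose from 0.250 to 12.6 CPM. Of 21 genes that make or store fatty acids 13 were lower and 6 higher, and the median log2 fold change in the authors' deposited table was -1.39. The lipid droplet gene CIDEB (85.1 to 1.27 CPM), the fatty acid binding protein FABP1 (519 to 8.17 CPM) and the glucose-responsive factor MLXIPL (87.6 to 5.89 CPM) fell, while malic enzyme ME1 rose from 0.129 to 30.7 CPM. Fatty acid oxidation split evenly, with 8 of 18 higher and 8 lower. The peroxisomal oxidase ACOX2 fell by 3.98 (SE 0.22) and the brain-type carnitine palmitoyltransferase CPT1C rose by 7.11 (SE 0.19) in the authors' deposited table.

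In glucose metabolism the liver forms of enzymes were lower and several other forms higher. Of 24 glycolysis and gluconeogenesis genes 8 were higher and 11 lower, and the median log2 fold change in the authors' deposited table was -0.22. The gluconeogenic genes PCK1 (58.2 to 0.787 CPM) and G6PC1 (98.1 to 1.54 CPM) and the liver pyruvate kinase PKLR (23.5 to 0.356 CPM) fell. The hexokinase HK1 rose from 1.54 to 194 CPM, the phosphofructokinases PFKM (3.85 to 115 CPM) and PFKP (4.05 to 104 CPM) rose too, and PKM, the pyruvate kinase of most other tissues, rose from 1097 to 3353 CPM. Pyruvate dehydrogenase and lactate export genes numbered 7 higher and 7 lower of 16. PDK4, a kinase that switches off pyruvate dehydrogenase, rose from 0.0341 to 40.2 CPM, a log2 fold change of 10.20 (SE 0.16) in the authors' deposited table. Its phosphatase PDP1 rose by 3.05 (SE 0.08), the relative PDK1 fell by 1.62 (SE 0.10) and the mitochondrial pyruvate carrier MPC1 fell by 3.32 (SE 0.21) in the authors' deposited table. The monocarboxylate transporter gene SLC16A14, known from fibrolamellar carcinoma, rose from 0.0859 to 20.3 CPM.

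Nuclear respiratory chain genes were mixed, with 8 of 27 higher and 12 lower, and the median log2 fold change in the authors' deposited table was -0.15. Of 13 mitochondrially encoded transcripts 8 were lower, none higher and 5 not called, and the median log2 fold change in the authors' deposited table was -0.68. MT-ND3 fell from 254 to 78.0 CPM and MT-ND5 by 0.99 (SE 0.28) in the authors' deposited table, while MT-CO2 stood at -0.19 (SE 0.32, adjusted p = 0.583). Among 28 ribosomal protein genes 24 were not called. RPL18 (1.16, SE 0.23) and RPL35 (0.55, SE 0.20) were higher, and RPL30 (-0.54, SE 0.21) and RPLP1 (-0.51, SE 0.20) lower in the authors' deposited table. Their SE ran from 0.197 to 0.348, and RPS6, at -0.55 in the authors' deposited table, was not called, so that changes of that size were near the limit of detection.

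The PKA catalytic subunit rose, and its partners moved apart. PRKACA went from an implied 80.8 CPM to 340 CPM, or 13.2 to 55.3 CPM per kb, with a log2 fold change of 2.07 (SE 0.14, adjusted p = 2.02e-48) in the authors' deposited table. DNAJB1 was at 205 and 173 CPM and was not called (-0.25, SE 0.13, adjusted p = 0.0609) in that table. Values per gene do not tell reads of the fusion from reads of the intact genes. Of 15 PKA subunits and anchors 4 were higher and 7 lower, and the median log2 fold change in the authors' deposited table was -0.26. The regulatory subunit PRKAR2B rose from 0.107 to 37.9 CPM (8.47, SE 0.14) and PRKAR1B by 0.84 (SE 0.08) in the authors' deposited table. The anchor genes AKAP12 (-4.48, SE 0.35), AKAP1 (-1.95, SE 0.12) and AKAP7 (-1.47, SE 0.07) fell, as did the PKA inhibitor PKIB (-4.45, SE 0.24) in the authors' deposited table. Genes that make and break cAMP numbered 9 higher and 7 lower of 17. The phosphodiesterases PDE10A (0.607 to 99.1 CPM) and PDE4B (0.0134 to 2.60 CPM) and the adenylyl cyclases ADCY3 (0.392 to 39.9 CPM) and ADCY5 (0.0385 to 1.97 CPM) rose. PDE3B (59.9 to 2.21 CPM), PDE3A (0.824 to 0.0186 CPM) and ADCY1 (3.23 to 0.0578 CPM) fell. Genes nearly silent in 1 line, such as PDE4B and ADCY5 in HepG2 and PDE3A in H12, can enter the table through the other line alone. The counts of this list depend on that.

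Of 24 known cAMP and CREB target genes 16 were measured, with 8 higher and 5 lower. Their median log2 fold change in the authors' deposited table was 0.52. Those that rose most were SCG2, the potassium channel KCNK3 (0.0353 to 7.58 CPM), VGF and the orphan receptor NR4A3 (0.219 to 1.56 CPM). Those that fell were, among others, PCK1, G6PC1, the metabolic coactivator PPARGC1A (49.4 to 1.09 CPM) and NR4A1 (8.61 to 1.43 CPM). PCK1, G6PC1 and PPARGC1A are also hepatocyte genes. Of 22 fibrolamellar carcinoma markers only 11 were measured, with 6 higher and 4 lower. The neuropeptide NTS rose from 0.0269 to 29.8 CPM and the Notch-type ligand DNER from 0.738 to 232 CPM. NTS here, and KCNK3 among the cAMP and CREB targets, were nearly silent in HepG2. Such genes can enter the table through H12 alone, which tilts the counts of these lists upward. The collagen COL9A3 fell from 26.1 to 0.315 CPM, and CPS1, the entry enzyme of the urea cycle, fell by 0.66 (SE 0.07) in the authors' deposited table. Among 22 genes of the CDK7 complex and related transcription kinases 13 were higher and 5 lower, and the median log2 fold change in the authors' deposited table was 0.29. The changes there ran from -0.60 to 1.06. CDK7 rose by 0.24 (SE 0.06) and its assembly factor MNAT1 by 0.53 (SE 0.05), while the partner cyclin CCNH stood at -0.09 (SE 0.05, adjusted p = 0.0760) in the authors' deposited table. The kinase CDK9 rose by 1.03 (SE 0.07) and the Mediator subunit MED12 by 1.06 (SE 0.06), and CCNT2, a cyclin partner of CDK9, fell by 0.50 (SE 0.07) in the authors' deposited table.

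Secretory granule genes gave the largest rise. SCG2, a granin that is packed in dense-core vesicles, went from 0.141 CPM to 2259 CPM, a log2 fold change of 13.97 (SE 0.60, adjusted p = 1.62e-119) in the authors' deposited table. Per kilobase it reached 831 CPM in H12, against 103 for ALB. Of 18 granins and neuropeptides 6 were measured, and 5 of these rose. With SCG2 and NTS these 5 were galanin (GAL, 0.0947 to 11.0 CPM), VGF (0.125 to 9.27 CPM) and CHGB. The processing enzyme carboxypeptidase E (CPE) fell from 1029.8 to 48.2 CPM. A gene silent in HepG2 enters the table only if it was detected in H12, which tilts such a count upward. Among 18 exocytosis and synapse genes 9 were higher and 7 lower. The SNARE gene SNAP25 reached 24.9 CPM in H12 while HepG2 lay at the floor, the calcium sensor SYT1 rose from 0.890 to 84.6 CPM, and VAMP1 rose by 2.67 (SE 0.10) in the authors' deposited table. The complexin CPLX2 (476 to 7.40 CPM) and the vesicle priming gene CADPS2 (37.1 to 0.730 CPM) fell. RAB27B, a GTPase of secretory vesicles, rose from 0.992 to 511 CPM, and SRGN, the core protein of granule proteoglycans, from 2.24 to 793 CPM.

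The promoter of VGF is shown because VGF rose and holds a full cAMP response element, the CREB binding site. It is the RefSeq sequence on GRCh38.p14 at chr7:101165520-101165819, minus strand, with the element TGACGTCA in capitals, beginning 79 bases before the start.
VGF: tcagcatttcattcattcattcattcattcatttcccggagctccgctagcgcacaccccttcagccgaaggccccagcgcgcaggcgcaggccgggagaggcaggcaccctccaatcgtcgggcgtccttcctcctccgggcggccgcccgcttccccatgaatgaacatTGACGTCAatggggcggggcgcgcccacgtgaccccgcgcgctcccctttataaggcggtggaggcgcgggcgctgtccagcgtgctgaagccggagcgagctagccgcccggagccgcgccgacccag
TGACGTCA, which reads the same on both strands, was in 15 of 869 promoters (1.73%) of genes that rose at least 32-fold and in 0.994% of those that fell that far. It was in 2.73% of the promoters of all tested genes and in 1.85% of all promoters. Its core TGACG, on either strand and including every full element, was in 23.6%, 18.9%, 31.3% and 24.5% of these sets. The share among rising genes was thus below that of all tested genes for both motifs.

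Matrix and adhesion genes moved strongly in both directions. Of 23 extracellular matrix genes 13 were higher and 8 lower, and the median log2 fold change in the authors' deposited table was 0.41. The collagens COL1A2 (3.90 to 1190.2 CPM), COL4A1 (0.0718 to 12.6 CPM) and COL6A2 (0.486 to 49.6 CPM) and the collagen crosslinker LOXL2 (3.13 to 333 CPM) rose. Fibronectin (FN1) fell from 14233 to 214 CPM, thrombospondin THBS1 from 92.9 to 1.66 CPM, the protease inhibitor TIMP3 from 464 to 7.62 CPM and LOX from 96.8 to 1.48 CPM. Because FN1 was so abundant, the summed level of the list was lower in H12 (3845 CPM) than in HepG2 (15865 CPM), against its median. Of 18 integrins and adhesion molecules 9 were higher and 9 lower. VCAM1 rose from 0.0195 to 41.7 CPM, the hyaluronan receptor CD44 from 11.4 to 2846 CPM and the integrin ITGA3 from 3.91 to 693 CPM. ICAM1 (240 to 3.65 CPM) and the collagen-binding integrins ITGA1 (67.5 to 1.08 CPM) and ITGA2 (114 to 1.80 CPM) fell.

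Epithelial junction genes were mostly lower, with 17 of 21 lower and 4 higher, and the median log2 fold change in the authors' deposited table was -3.72. E-cadherin (CDH1) fell from 47.6 to 0.673 CPM and the connexin GJB1 from 152 to 2.38 CPM. Claudin CLDN4 (1.97, SE 0.09) and the simple epithelial keratins KRT8 (0.65, SE 0.27), KRT18 (0.78, SE 0.28) and KRT19 rose in the authors' deposited table. Of 17 mesenchymal genes 12 were measured, with 6 higher and 6 lower. Vimentin (VIM) rose from 24.0 to 2432 CPM and S100A4 from 6.11 to 971 CPM, while N-cadherin (CDH2, 10.5 to 0.202 CPM) and the factor SNAI2 (0.869 to 0.0119 CPM) fell.

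**Figure D3:**
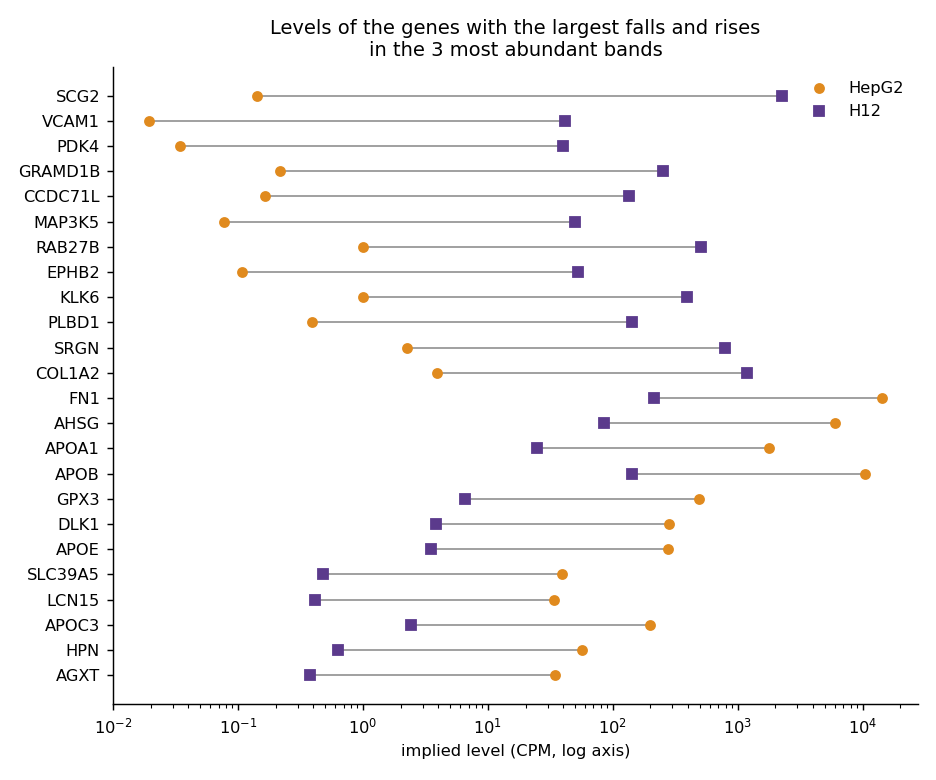
Implied levels (CPM, log axis) in HepG2 (circles) and H12 (squares) for the genes with the 4 largest rises and the 4 largest falls in each of the 3 bands from 4 log2 CPM upward. Rising genes start between 0.0195 and 3.90 CPM, and the H12 levels of falling genes follow their HepG2 levels at a near constant distance.

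Interferon and antigen presentation genes were mostly higher. Of 26 interferon-stimulated genes 16 were higher and 7 lower, and the median log2 fold change in the authors' deposited table was 0.78. IFITM1 (1.31 to 258 CPM), DDX60 (0.659 to 49.7 CPM), IFIT2 (1.44 to 63.8 CPM) and OAS2 (0.406 to 12.4 CPM), all antiviral effectors, rose. XAF1 (-3.87, SE 0.21) and USP18, a brake on interferon signalling (-2.68, SE 0.09), fell in the authors' deposited table. Of 20 antigen presentation genes 15 were higher and 4 lower, and the median log2 fold change in the authors' deposited table was 1.04. Class II genes led, and those at or near the floor in HepG2 can enter the table through H12 alone, which tilts the count upward. HLA-DRA reached 11.9 CPM and HLA-DPB1 1.46 CPM in H12 with HepG2 at the floor, and HLA-DRB1 (0.0349 to 10.7 CPM) and HLA-DPA1 (0.0423 to 11.0 CPM) rose. CD74, the invariant chain that accompanies class II molecules, fell from 77.0 to 11.9 CPM, and HLA-F fell by 5.73 (SE 0.29) in the authors' deposited table. HLA genes share sequence, so the split of reads among them is uncertain. Of 18 NF-kB and inflammatory genes 11 were higher and 4 lower. The chemokine CXCL5 (to 503 CPM) and TNFAIP2 (1.93 to 309 CPM) rose, the decoy receptor TNFRSF6B reached 15.4 CPM from the floor, and the chemokine CCL20 (293 to 4.78 CPM) and the NF-kB inhibitor TNFAIP3 (from 145 CPM, by a log2 fold change of -3.27 in the authors' deposited table) fell. CCR6, the receptor of CCL20, fell as well, from 15.6 to 0.171 CPM.

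Mitotic genes were higher and growth signalling genes mixed. In G2 and M phase, 21 of 26 genes were higher and 1 lower, and the median log2 fold change in the authors' deposited table was 1.05. The ubiquitin enzyme UBE2C (1.86, SE 0.09), its partner CDC20 (1.74, SE 0.15), ANLN (1.64, SE 0.19), which builds the cleavage furrow, and HMMR (76.9 to 249.8 CPM) led, and CCNA2 was lower by 0.23 (SE 0.11) in the authors' deposited table. S phase genes numbered 11 higher and 8 lower of 25, with CCNE2 at 1.72 (SE 0.07) against MCM3 at -1.12 (SE 0.18) in the authors' deposited table. G1 cyclins and CDK inhibitors numbered 9 higher and 7 lower of 17. CDKN2A (1.13 to 0.0240 CPM) and CDKN2B (1.66 to 0.0474 CPM) fell, and CDKN1C reached 1.09 CPM from the floor. Of 18 targets of Wnt and beta-catenin signalling 14 were lower and 1 higher, and the median log2 fold change in the authors' deposited table was -5.38. The secreted Wnt inhibitors NOTUM (148 to 2.15 CPM) and DKK4 (1.54 to 0.0111 CPM) and the ammonia transporter RHBG (54.3 to 0.708 CPM) fell, and the factor TCF7 was higher by 0.21 (SE 0.06) in the authors' deposited table. Of 20 receptor tyrosine kinases and ligands 9 were higher and 11 lower. EPHB2 (0.107 to 52.2 CPM), EREG, a ligand of the EGF receptor (4.62 to 259 CPM), and RET (0.0574 to 1.31 CPM) rose, and ERBB3 (398 to 10.9 CPM) and FGFR4 (144 to 5.85 CPM) fell.

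Hypoxia and unfolded protein response genes were mostly lower, and other stress lists were mixed. Of 21 hypoxia response genes 18 were lower and 2 higher, and the median log2 fold change in the authors' deposited table was -1.88. The carbonic anhydrase CA9 (to 0.116 CPM) and the mitophagy receptor BNIP3 (353 to 5.18 CPM) fell, while HIF1A itself rose by 1.43 (SE 0.18) in the authors' deposited table. Of 22 unfolded protein and stress response genes 17 were lower and 4 higher, and the median log2 fold change in the authors' deposited table was -1.15. The cystine transporter SLC7A11 (-3.15, SE 0.16), the pseudokinase TRIB3 (-2.47, SE 0.10) and the factor XBP1 (-2.40, SE 0.20) fell, and CHAC1, which degrades glutathione, rose from 0.0303 to 1.94 CPM in the authors' deposited table. NRF2 targets numbered 6 higher and 10 lower of 21, with AKR1B10 (76.2 to 1.11 CPM) lower and ME1 higher. The AKR1C genes, also lower, share near-identical sequence and are uncertain singly. Of 20 heat shock genes 9 were higher and 4 lower, with HSPB1 (16.1 to 122 CPM) and BAG3 (24.5 to 72.8 CPM) higher. Of 20 p53 target and apoptosis genes 10 were higher and 8 lower. GDF15 fell from 113 to 4.98 CPM and the p53 antagonist MDM2 from 274 to 63.1 CPM, and the death protease CASP8 rose from 52.0 to 164 CPM. Of 16 housekeeping reference genes 9 were higher and 2 lower, and the median log2 fold change in the authors' deposited table was 0.49. HPRT1 (1.87, SE 0.09) and ACTB (1.38, SE 0.40) were higher in it.

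**Figure D4:**
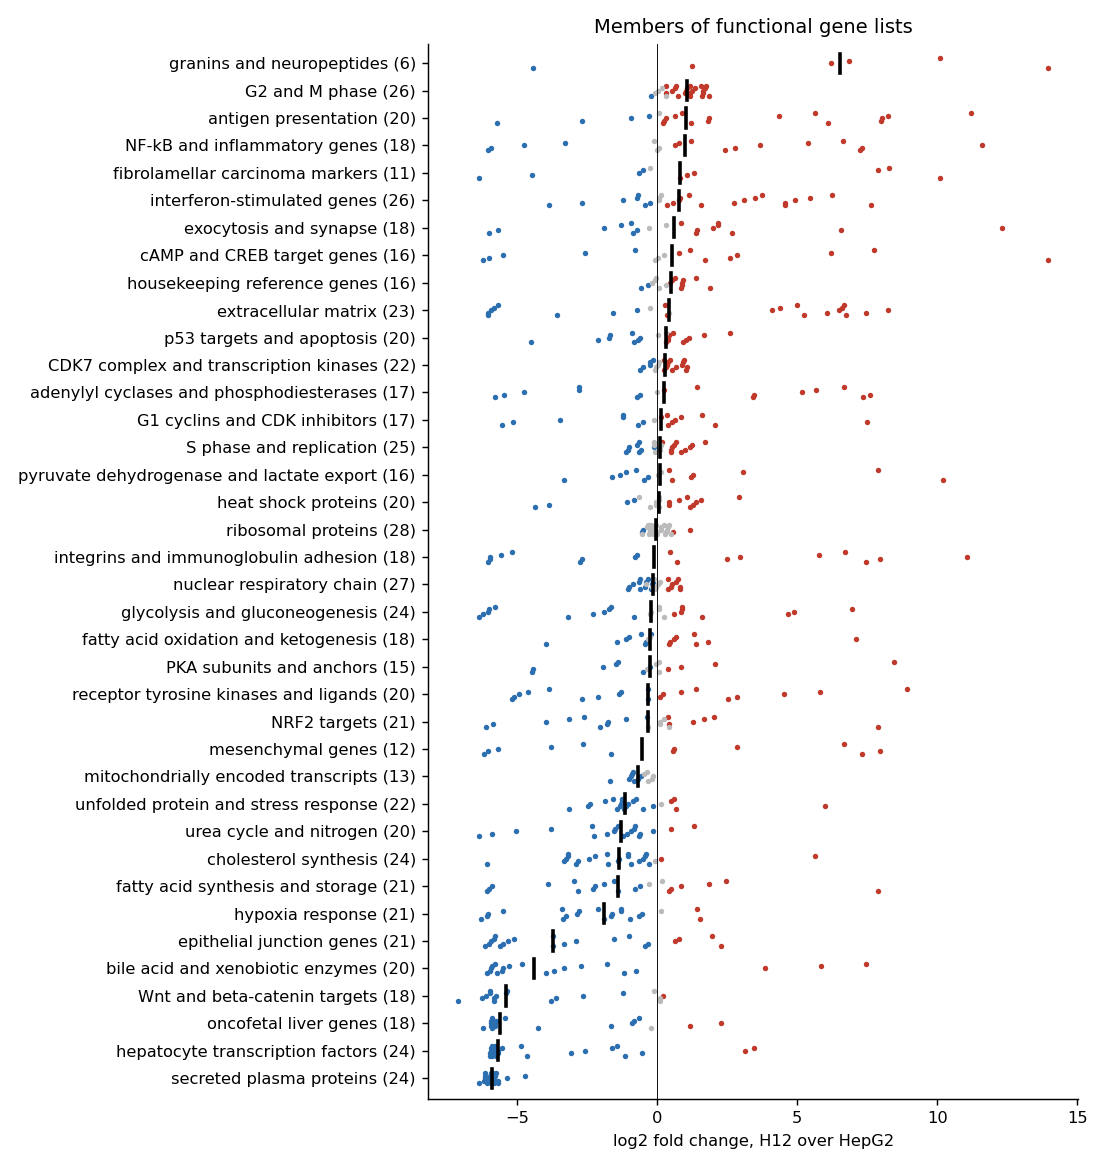
Each point is a measured member of a list, at its log2 fold change of H12 over HepG2, with red for higher, blue for lower and grey for not called, and a black bar at the list's median. Numbers in brackets give measured members; the 24 secreted plasma proteins sit at the bottom with a median of -5.91 and the 26 G2 and M phase genes near the top with 1.05.

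Markers of other cells were sparse. Measured were 3 of 10 fibroblast, 2 of 10 endothelial, 4 of 12 leukocyte, 5 of 10 cholangiocyte, 9 of 14 squamous and skin, and 2 of 12 neural crest and endocrine markers. Fibroblast markers numbered 1 higher and 2 lower and summed to 135 CPM in HepG2 and 21.0 CPM in H12, with COL3A1 at 1.53 CPM in H12. Endothelial markers numbered 0 higher and 2 lower and summed to 2.54 and 0.571 CPM. Leukocyte markers numbered 1 higher and 3 lower, with lysozyme (LYZ) falling from 3147 to 51.3 CPM. Cholangiocyte markers numbered 2 higher (KRT19 and the mucin MUC1, which went from 0.0859 to 23.4 CPM) and 3 lower. Neural crest and endocrine markers numbered 1 higher and 0 lower, the vesicle protein SYP (2.01, SE 0.10) in the authors' deposited table. Squamous and skin markers numbered 6 higher and 3 lower. Of the 6, 5 are neighbouring kallikrein genes that were low or at the floor in HepG2, and such genes can enter the table through H12 alone, which tilts the count upward. TP63 rose from 1.61 to 157 CPM, KLK6 from 1.01 to 393 CPM and KLK7 from 0.0343 to 21.9 CPM, and KLK8 and KLK10 reached 6.52 and 7.01 CPM from the floor. The kallikreins are proteases of the skin, while KRT10 (-0.93, SE 0.10), SFN (-1.37, SE 0.10) and PERP (-1.28, SE 0.12), of the same list, fell in the authors' deposited table. The part of other cells in the changes above was not tested.

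Genes with changes of at least 32-fold also stood side by side on chromosomes. Runs of at least 3 measured neighbours that all passed that size in 1 direction, a rule chosen after the values were seen, numbered 33 for rises and 44 for falls. How many such runs would arise among randomly placed genes was not tested. The longest was the HOXB cluster of homeobox genes on chromosome 17, where 12 neighbours from 48294335 to 48647023 rose. Of these, SKAP1-AS2, HOXB-AS1, HOXB-AS2 and ENSG00000272763 lay at the floor in HepG2. They can enter the table through H12 alone, which can lengthen a run, and HOXB3 overlaps other members. HOXB9 went from 0.367 to 116 CPM (8.30, SE 0.11), HOXB8 from 0.165 to 55.3 CPM, HOXB2 from 0.0637 to 24.5 CPM and HOXB6 from 0.0930 to 21.2 CPM in the authors' deposited table. KLK5 to KLK10 formed a run of 5 rises on chromosome 19, and HLA-DRA, HLA-DRB1, HLA-DQA1 and HLA-DQB1 a run of 4 on chromosome 6. Among falls, a run of 9 on chromosome 4 held the glucuronosyltransferase genes UGT2B10 (238 to 4.11 CPM) and UGT2B4 (52.0 to 0.938 CPM) and the sulfotransferase SULT1E1. The serpins SERPINA1, SERPINA4, SERPINA5, SERPINA6, SERPINA10 and SERPINA11 formed a run of 6 on chromosome 14, and APOA5, APOA4, APOC3 and APOA1 a run of 4 on chromosome 11. A run of 6 falls on chromosome 9, from 20341665 to 22009363, held CDKN2A and CDKN2B together with MTAP (87.9 to 1.71 CPM), FOCAD (48.3 to 0.945 CPM), KLHL9 (47.0 to 0.822 CPM) and MLLT3 (8.04 to 0.110 CPM), of which MTAP encodes an enzyme of methionine salvage. Coordinates are those of GENCODE 29 on GRCh38.

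Smaller shifts differed among chromosomes and among regions within them. Over the 8406 genes of at least 4 log2 CPM, leaving out chromosome Y, the median log2 fold change in the authors' deposited table was -0.04. It was -0.68 for 262 genes of chromosome 20, and -0.45, -0.43 and -0.42 for chromosomes 6, 13 and 4. It was 0.67 for 266 genes of chromosome X, 0.63 for 93 genes of chromosome 21 and 0.32 for chromosome 7. Along windows of 20 such neighbours the median of window medians was -0.01, and 5% of the 7955 overlapping windows lay below -0.77. The lowest window, on chromosome 16 from 4510675 to 11381662, had a median of -1.43 and all 20 genes lower in the authors' deposited table. The median of all 400 such genes of chromosome 16 was -0.21. The highest, on chromosome X from 276322 to 13710506, had a median of 1.44 and 14 of 20 genes higher. The number of copies of these regions was not measured.

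**Figure D5:**
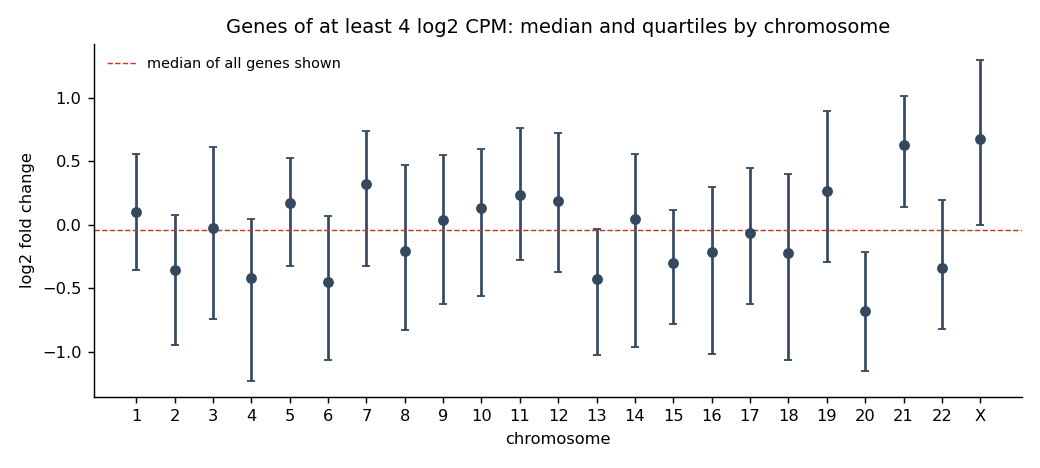
Points give the median log2 fold change of H12 over HepG2 by chromosome, bars the quartiles across genes of at least 4 log2 CPM, and the dashed line the median of all of them (-0.04). Chromosome 20 is lowest at -0.68, and chromosomes X and 21 are highest at 0.67 and 0.63.

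H12 was set beside H33, which shares the HepG2 libraries, to see where it differs. The difference of the log2 fold changes passed an adjusted p of 0.05 (normal test on the derived SE, Benjamini-Hochberg) for 797 of 14765 shared genes (5.40%), with H12 above H33 in 574 and below it in 223. In 434 of these 574 the gene fell at least 32-fold in both clones and fell further in H33, with the limit that the H12 values are means over libraries not seen singly. The share that passed was 9.27% between 0 and 2 log2 CPM. It was 1.42% (9 of 634 genes) at 8 log2 CPM and over, where the median ratio of the SE in H12 to that in H33 was 5.71. ALB, at -5.92 in H12 and -9.90 in H33 in the authors' deposited tables, did not pass this test (adjusted p = 0.164). An abundant gene that did not pass is therefore not shown to be alike in the clones. The 587 deep falls of H12 with at least 10 CPM in HepG2 had medians of -5.84 in H12 and -8.15 in H33 in the authors' deposited tables, with SD across genes of 0.301 and 1.69 and median SE of 0.711 and 0.116. The 373 large rises had medians of 6.86 in H12 and 6.95 in H33 in the authors' deposited tables. Of the 339 genes named by rule, 337 were in both tables and 49 of these differed, 35 with H12 above and 14 below H33.

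Outside those common falls, 140 genes were higher in H12 than in H33 and 218 lower. The cut at 32-fold leaves among the 140 some genes that fell in both clones and missed the cut in H12. Examples in the authors' deposited tables are BCAT1 (-4.95, SE 0.46, in H12 and -6.34 in H33) and SEC16B (-4.63, SE 0.47, and -6.44). The genes that follow are examples of at least 2 log2 CPM in either table, chosen after their values were seen. NR5A2, a nuclear receptor of bile acid and steroid synthesis, stood at 4.89 CPM in H12 and 0.906 in H33 (difference 2.39, SE 0.16). PRKAA2, a catalytic subunit of the energy sensor AMPK, stood at 8.86 and 1.85 CPM (2.23, SE 0.14), the hormone gene STC1 at 11.5 and 3.05 CPM (1.99, SE 0.28) and the insulin signalling adaptor GRB10 at 5.69 and 1.45 CPM (1.94, SE 0.15). HLA-DRA stood at 11.9 CPM in H12 and 2.99 in H33, and HLA-DRB1 at 10.7 and 4.13 CPM (1.45, SE 0.36). In the other direction, UGT1A1, which conjugates bilirubin, was at 0.622 CPM in H12 and 3.99 in H33 (-2.71, SE 0.65), and the epithelial factor ELF5 at 4.84 and 12.5 CPM (-1.38, SE 0.21). The tubulin TUBA4A was at 0.438 and 1.36 CPM (-1.65, SE 0.18), the laminin LAMB3 at 25.9 and 54.1 CPM (-1.06, SE 0.19) and the cholesterol exporter ABCA1 at 64.3 and 127 CPM (-0.99, SE 0.16). UGT1A genes share exons and are uncertain singly. For PRKACA, CDK7, SCG2, VCAM1 and PDK4 the difference did not pass the threshold.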

How the data were processed

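Groups followed the cell line and genotype labels. Per the submitters' processing notes, bcl2fastq 2.20.0.422, STAR 2.5.3a, RSEM, edgeR 3.28.0 and the build GRCh38.p10 were used, without roles. Per the file headers, the authors' table holds for each gene a log2 fold change and a mean log2 CPM. The authors' likelihood ratio is used as a score. Each deposited p-value matches its upper chi-square tail (1 degree of freedom), 421 of them stand at 0, and Benjamini-Hochberg adjustment over 14896 genes came within 0.000105 of the deposited adjusted values. How genes were filtered and scaled, and which annotation and strand setting served, is not given in the sources used here. Count tests planned for counts were replaced by these statistics, since counts were not used here.

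SE is the absolute log2 fold change over the root of the likelihood ratio. Levels assume equal groups. Genes were named by rule: PRKACA, DNAJB1, CDK7, CCNH and MNAT1; the 10 largest rises and falls of at least 2 log2 CPM; the 4 largest per abundance band; the 10 most abundant per kb in each line; the 10 largest SE and likelihood ratios from 6 log2 CPM; and up to 4 called members per list and direction. Members and lists were chosen with earlier results of these data known. Positions and exon lengths come from GENCODE 29 and promoters from RefSeq (GRCh38.p14), matched by symbol for 11061 tested genes. The clones share HepG2 libraries, which the difference test ignores, and its SE can be too small near the floor. Near-identical and overlapping genes are uncertain. Some genes taken by the rule are not reported here; counts and medians include them. Alternatives were an adjusted p of 0.01, an F distribution with 10 degrees of freedom, a filter at 1 log2 CPM, centring, a confidence bound on fold and, chosen after seeing the data, levels under 0.1 CPM set to 0.1 CPM. The tools were matplotlib 3.10.9, pandas 2.3.3, scipy 1.17.1 and numpy 2.4.6 under Python 3.11.15.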

Additional observations from a re-analysis of the deposited data

Results flagged for a closer look

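Of the 337 named genes present in both tables, 49 differed between H12 and H33 in the log2 fold change against HepG2 (adjusted p under 0.05, normal test on the derived SE, Benjamini-Hochberg over 14765 genes). The values in brackets are H12 minus H33 in log2 units, and the 2 comparisons share the HepG2 libraries. In 29 of the 35 with H12 above H33, the gene fell at least 32-fold in both clones and had a higher mean level in H12. Whether all 6 H12 libraries hold the reads behind these means, which carry SE of up to 1.57 (APOB) on the log2 fold change, cannot be seen here. Among these were AFP (10.81), DLK1 (6.45), AGXT (6.20), AHSG (5.90), G6PC1 (5.64), APOA2 (5.61), CDH2 (5.31), CCR6 (5.07), APOB (4.92), LOX (4.28), PPARGC1A (4.26), ARG1 (4.19), CSF3R (4.06), AKR1C2 (4.05), CIDEB (3.94), CADPS2 (3.53), ADCY1 (3.50), CYP8B1 (3.17), RHBG (2.63), LCN15 (2.57), SLC39A5 (2.54), UPK3A (2.32), CYP2W1 (2.27), PKLR (2.23), CLDN19 (1.59), HLA-F (1.35) and GLS2 (1.24). CPS1 (0.25) and CD74 (1.09) were lower than in HepG2 in both clones, less so in H12. The phosphatase gene PDP1 (0.85) and the class II genes HLA-DRB1 (1.45) and HLA-DRA (2.16) were higher in both and more so in H12. TCF7 (0.59) was above HepG2 in H12 and below it in H33.

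In 14 genes H12 lay below H33. MAGEA3 (-4.06), a cancer-testis antigen, stood at 0.0109 CPM in H12 and 0.182 CPM in H33, and CYP3A7 (-2.21), the fetal liver cytochrome, at 0.122 and 0.553 CPM. IGSF23 (-1.89), CA9 (-1.10), TIE1 (-0.99), SFN (-0.64) and ISG20 (-0.45) had a lower level in H12 than in H33, with HepG2 above both. HLA-C (-0.27) was lower in H12 than in H33, where it did not pass the threshold against HepG2. PDE4B (-1.54), COL3A1 (-1.40), KLK7 (-0.80), SYT1 (-0.45), CD68 (-0.40) and CDKN2C (-0.36) were above HepG2 in both clones, and less far in H12. Levels at the fitted floor set part of some values, which then depend on the prior count: those of ADCY1, CCR6, CDH2 and AGXT in H33, of HLA-DRA in HepG2 and of IGSF23 in H12. The causes of these differences were not tested.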

How the results depend on the processing

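The count of called genes was 12817. It was 12177 at an adjusted p of 0.01, 12493 with an F distribution and 10715 among genes of at least 1 log2 CPM. Centring on the median leaves the p-values as they are, so its count of 12817 was fixed in advance. At 2-fold the count was 6564, and 5677 by the confidence bound. Among the settings that make calls, only centring moves a fold change, by the median of -0.03. The smallest called changes were 0.097 and -0.099, so no call could change direction. Of 339 named genes, 8 lost their call at an adjusted p of 0.01 and 5 with the F distribution, among them GAPDH and MT-CO1. Some counts of list members moved by over 1.5 times. At an adjusted p of 0.01 and with the F distribution, cholesterol synthesis had 1 gene higher, the CDK7 list 3 lower and G2 and M phase 0 lower. At 0.01, ribosomal proteins had 0 lower. From 1 log2 CPM upward, G1 cyclins and CDK inhibitors had 4 lower, heat shock proteins 2 lower, fibroblast markers 0 higher, endothelial markers 0 lower and leukocyte markers 1 lower, since fewer genes were tested. With levels under 0.1 CPM set to 0.1 CPM, medians were -4.09 for bile acid and xenobiotic enzymes, -4.66 for Wnt targets, -2.11 for leukocyte markers and 6.13 for squamous markers. No paired analysis was possible because values per library were not used here, and for the same reason no library could be left out. Depth is unknown, so the limit of detection of low genes was not set.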

Other observations

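Further runs of neighbouring genes, chosen after their values were seen, held genes outside the lists. On chromosome 17 the transporter genes ABCA8 (0.174 to 24.3 CPM), ABCA6 (0.276 to 23.6 CPM) and ABCA10 (0.731 to 81.3 CPM) were higher in H12 than in HepG2. On chromosome 3 the soluble pattern receptor PTX3 (0.340 to 41.5 CPM) and the homeobox gene SHOX2 (0.419 to 84.6 CPM) were higher, and so was the growth factor gene FGF5 on chromosome 4 (0.0246 to 0.897 CPM). On chromosome 10 ADIRF went from 0.487 to 120 CPM and SNCG, a member of the synuclein family, from 0.151 to 5.43 CPM. On chromosome 16 the acyl-CoA synthetase genes ACSM5 (8.66 to 0.128 CPM), ACSM2B (19.6 to 0.333 CPM) and ACSM3 (74.9 to 1.88 CPM) were lower. On chromosome 17 the chemokine genes CCL15 (15.2 to 0.307 CPM) and CCL16 (8.41 to 0.104 CPM), and on the X chromosome the thyroxine-binding globulin gene SERPINA7 (332 to 6.14 CPM), were lower as well. ACSM2A and ACSM2B share near-identical sequence and are uncertain singly.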
